A study of Drosophila melanogaster with 5 samples.

Results

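The stage 6-7 gastrula (S6-7) was compared with the stage 5 cellular blastoderm (S5) of Drosophila melanogaster on nylon cDNA membranes. The comparison covered the 4 membranes of S6-7 and the 4 membranes of S5, which stand for 2 of the 5 embryo intervals of the series, and it was made within each membrane letter, A to D. All 259 genes carried as library cDNA were included, of which 243 were spotted on A to C and 258 on D. The library had been enriched by subtracting cDNA of stage 2-3 embryos from cDNA of S6-7 embryos, so the genes on the membranes were drawn from S6-7 RNA. Both groups were wild type Canton-S embryos, selected by hand for their stage and pooled as whole embryos, with no mutation, transgene or treatment in either. Each interval was 1 sample, and its 4 membranes came from 2 labeling and hybridization events whose letters were not stated. The errors and p-values below therefore measure the spread between membranes. In pools of whole embryos, fewer cells of a type and less RNA per cell cannot be told apart.

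During stage 5 the nuclei that lie under the surface of the syncytial embryo are enclosed by membrane furrows that grow inward between them, a process called cellularization that depends on early zygotic genes and on actin and septin filaments. At stages 6 and 7 the ventral mesoderm folds into the embryo, the head and posterior midgut invaginate, and the germ band begins to extend. Many genes needed for cellularization are transcribed for a short time only, while patterning genes of the mesoderm, the dorsal ectoderm and the segments continue to be used in the gastrula.

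Between the 2 intervals, 4 genes fell at S6-7 and 1 rose, out of 191 genes that could be tested. The genes that fell were Sry-alpha, which encodes an actin-associated protein of the cellularization furrow, CG12730 and CG6479, whose products are uncharacterized, and Tctp, the translationally controlled tumor protein homolog. The gene that rose was ena, which encodes Enabled, an Ena/VASP protein that promotes the elongation of actin filaments. The call rested on limma with the membrane letter as a block and an adjusted p under 0.05, and it was made for 0.524% of the genes tested in the higher direction and for 2.09% in the lower direction. At an unadjusted p under 0.05 there were 18 higher genes (9.42%) and 26 lower genes (13.6%). Without the letter as a block, 0 genes were higher and 3 were lower (1.57%), and these 3 were Sry-alpha, CG12730 and CG6479.

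All levels are log2 values of the net signal of a gene over the median net signal of the RP49 control spots of the same membrane, where 0 means a signal equal to that of the ribosomal protein gene RP49, and a difference of 1 is a change of 2-fold. The median difference of the 191 genes was -0.20, with 74 genes above 0 and 117 below, and 148 genes lay within 1 of 0. The middle of the distribution was not the same on each membrane letter, since the median was 0.40 on A, -0.29 on B, -0.56 on C and -0.10 on D. The sign of a small difference thus depended on the scale. With the mean of the RP49 spots in place of their median the median gene moved by 0.71 to 0.51, and 4 genes were higher and 3 lower. With scaling to the 75th percentile of the library spots the median gene was at 0.02, and 6 genes were higher and 4 lower.

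The control spots were more scattered at S5 than at S6-7. The coefficient of variation of the RP49 spots was 18% to 50.3% on the S6-7 membranes and 53.4% to 125% on the S5 membranes. The tubulin spots varied by 6.44% to 20.4% at S6-7 and by 41.0% to 149% at S5. The library spots did not share that scatter to the same degree, because the variation among clones made up 92.1% to 97.3% of the variance of duplicated spots at S6-7 and 77.1% to 95.7% at S5. The lowest of these values was that of S5 membrane B. Between 56.6% and 92.2% of the library spots passed the signal rule at S6-7, and between 61.2% and 88.1% at S5. S5 membranes A and C resembled each other closely, with a Spearman correlation of 0.95 over 538 gene spots, against 0.79 for the same letters at S6-7. These S5 membranes may not be independent measurements, and the p-values below count them as separate. With A and C averaged, 0 genes were higher and 3 lower, which were Sry-alpha, CG12730 and CG6479. The part of the scattered control spots in the results below was tested only through the other scales. Whether the control spots of S5 membranes A to C are in register with their names was not tested, and where they are not, the S5 levels there are relative to a value other than RP49. Sry-alpha, CG12730 and CG6479 were called lower, and ena higher, also with the 75th percentile and with quantile normalization, which use no control spot.

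**Figure D1:**
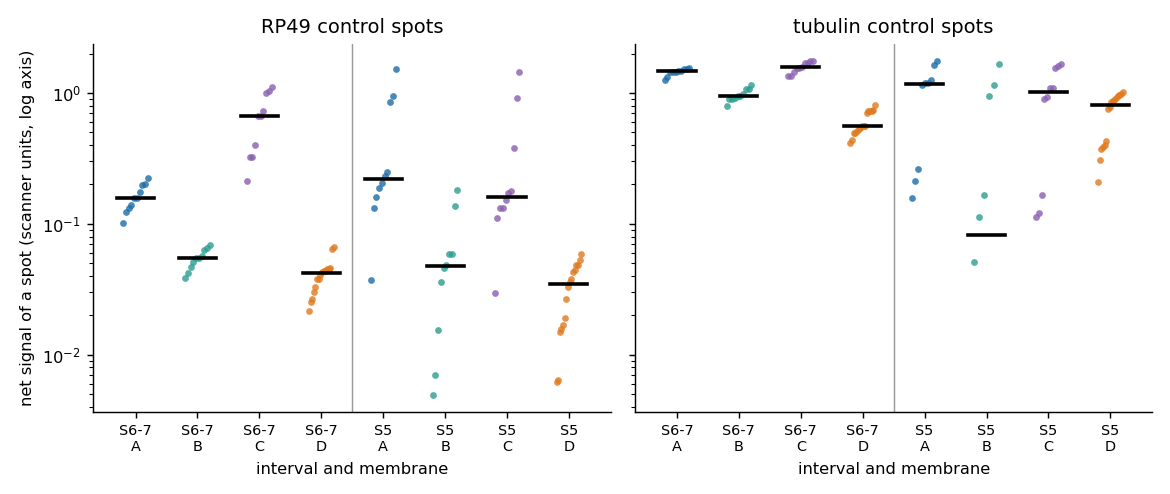
Net signal of each RP49 spot (left) and each tubulin spot (right) on the S6-7 and S5 membranes, on a log axis in scanner units, with the median of each membrane as a black bar; 1 tubulin spot of S5 membrane A and 4 of S5 membrane B had a net signal of 0 and are not drawn. The spots of S5 membranes A to C spread over a wider range than those of S6-7 membranes A to C.

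The genes that mark the stages were checked first. Sry-alpha, a marker of the cellular blastoderm, had levels of -0.74, -1.08, -2.46 and -0.73 on S6-7 membranes A to D, against 2.29, 3.44, 2.43 and 1.64 on S5 membranes A to D. All 4 S6-7 membranes lay below all 4 S5 membranes. The fitted difference was -3.70 (SE 0.43, limma, adjusted p = 4.73e-05), which is a level 13.0-fold lower at S6-7. Among the 52 genes measured on all 8 membranes, Sry-alpha was the 1 gene whose S6-7 membranes were all below its S5 membranes (1.92%), and Tom and ena were the 2 genes in the other direction (3.85%). Separate control spots carrying Sry-alpha DNA on A to C had medians of -0.67, -1.11 and -2.24 at S6-7 and of 0.32, 0.85 and 0.11 at S5, over 17 of 30 spots that passed at S6-7 and 16 of 30 at S5. The coefficient of variation of these spots was 35.3% to 55.8% at S6-7 and 121% to 150% at S5. On each of A to C their difference was smaller than that of the library spots. They are also among the control spots whose register was not tested. Over the 5 intervals Sry-alpha was measured at -2.36 at S2-3 (1 membrane), 2.45 ± 0.74 at S5 (SD, n = 4), -1.25 ± 0.82 at S6-7 (n = 4), -2.12 ± 0.75 at S8-9 (n = 4) and -1.50 ± 1.05 at S10-12 (n = 2). The S5 mean was the highest of the 5.

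The spots of the other markers passed the signal rule on some membranes only. Of the gastrula mesoderm markers, sna, the Snail repressor of the mesoderm, passed on 6 of 34 spots at S6-7 and 13 of 34 at S5, although its median net signals of 0.0970, 0.0313 and 0.206 on S6-7 membranes A to C lay above the 75th percentiles of the library spots there. The rule sets a spot against the SD of its own background. A second marker, twi, the Twist activator, passed on 19 of 34 at S6-7 and 16 of 34 at S5. Spots of fog, the ligand that triggers apical constriction, passed on 0 of 34 spots at S6-7 and 3 of 34 at S5. Both sna and fog thus passed on fewer spots at S6-7 than at S5. Spots of tin, the homeobox gene of the later dorsal mesoderm, passed on 22 of 34 spots at S6-7 and 9 of 34 at S5. Solvent spots without DNA passed on 51 of 560 at S6-7 and 82 of 560 at S5. Of the remaining blastoderm markers, SNCF was measured as described below, and nullo, bnk and slam were not analysed here.

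CG12730 had levels of -2.72, -1.88, -3.45 and -3.42 on S6-7 membranes A to D, against 1.68, 1.80 and -1.60 on S5 membranes A, C and D. All S6-7 membranes lay below the 3 S5 membranes, but D was the lowest of the S5 values and close to the highest S6-7 value. The share of all genes separated in this way on 4 membranes against 3 was not counted. The fitted difference was -3.79 (SE 0.58, limma, adjusted p = 0.000945), or 13.8-fold lower at S6-7. At the other intervals it was low as well, with -3.35 ± 0.16 at S2-3 (n = 2), -2.91 at S8-9 (1 membrane) and -1.73 ± 0.94 at S10-12 (n = 3).

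CG6479 had levels of -1.90, -1.57, -2.92 and -0.27 on S6-7 membranes A to D, against 1.58, 1.65 and 0.99 on S5 membranes A, C and D. The groups did not overlap, on 4 membranes against 3, a coverage for which the share over all genes was not counted. Its fitted difference was -3.18 (SE 0.48, limma, adjusted p = 0.000389), or 9.06-fold lower at S6-7. It was at -3.0 ± 0.44 at S2-3 (n = 3), -1.77 ± 0.94 at S8-9 (n = 3) and -1.81 ± 1.04 at S10-12 (n = 4), so that for CG6479 as for Sry-alpha and CG12730 the S5 mean stood above the means of the other intervals. Sry-alpha, CG12730 and CG6479 were called lower in the fit and in all 18 alternative settings, the fit without the block and the omission of each letter included.

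Tctp and ena did not hold in this way. Tctp had levels of 0.38, 0.27, -1.22 and -0.60 on S6-7 membranes A to D, against 1.67, 1.71 and -0.07 on S5 membranes A, C and D. The groups overlapped, because S5 membrane D lay below S6-7 membranes A and B. The fitted difference was -1.60 (SE 0.40, limma, adjusted p = 0.0408), or 3.04-fold lower at S6-7, and the call was kept in 7 of 18 alternatives. It was lost without the block and without letter A, B or C. Over the alternatives its adjusted p in limma ranged from 0.00108 to 0.976.

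The actin regulator ena had levels of 0.75, 0.77, 0.08 and -0.04 on S6-7 membranes A to D, against -1.52, -1.28, -2.59 and -0.40 on S5 membranes A to D. The groups did not overlap, although on D they differed by 0.37 only, against 2.05 to 2.68 on A to C. The fitted difference was 1.84 (SE 0.39, limma, adjusted p = 0.0105), or 3.58-fold higher at S6-7. Without the block the adjusted p in limma was 0.597, the highest of a range that began at 5.91e-05, and the call was also lost without letter A, B or C and with membranes A and C averaged. Over the 5 intervals ena was at -2.61 ± 0.54 at S2-3 (n = 2), -1.45 ± 0.90 at S5 (n = 4), 0.39 ± 0.43 at S6-7 (n = 4), 0.50 ± 0.60 at S8-9 (n = 2) and -0.24 ± 0.82 at S10-12 (n = 4).

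**Figure D2:**
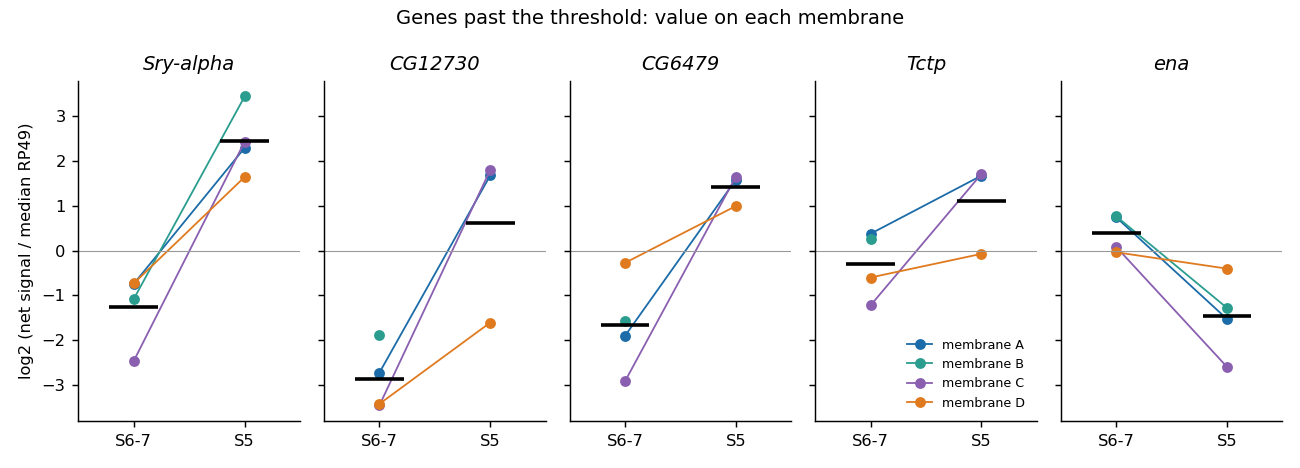
Level of the 5 genes past the threshold on each membrane, as log2 of the net signal over the median RP49 signal, with S6-7 left of S5, lines joining membranes of the same letter and black bars for the means. Sry-alpha, CG12730 and CG6479 were lower at S6-7 on every letter measured at both intervals, and on membrane D the 5 differences were smaller in size than on A and C.

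The membranes did not agree equally on the differences. Across genes, the difference on A correlated with that on B with Pearson r = 0.61 (78 genes) and with that on C with r = 0.89 (111 genes), and B and C gave r = 0.72. The difference on D correlated with those on A, B and C with r = 0.06, 0.14 and 0.12. These values describe genes on shared membranes, and the agreement of A with C includes that of their S5 membranes. The spread of the differences was also narrower on D, with an SD of 0.60 over 238 genes against 1.36, 1.25 and 1.34 on A, B and C. Membrane D has another layout, with more clones of the library and no dap spike.

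Of the 4 letters, D changed the count most when it was left out. Without D, limma called 20 genes higher and 21 lower of 148 tested. Membrane D was not used in those calls, and of the 20 lower genes that it measured 14 were also below 0 on D (70.0%), while 57.8% of all 135 genes were below 0 on D. Of the 19 higher genes with a value on D, 7 were above 0 (36.8%), while 42.2% of all genes were. Neither share was tested. The larger differences on D among the lower genes were those of Sry-alpha (-2.37), Df31 (-1.94), CG12730 (-1.82), SNCF (-1.54) and CG6479 (-1.27).

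**Figure D3:**
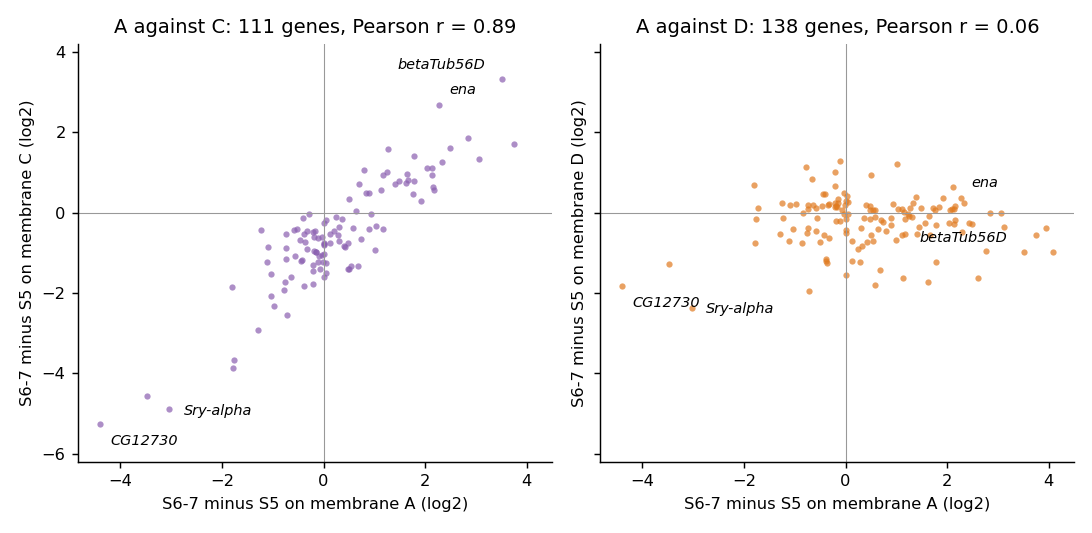
Difference of S6-7 minus S5 (log2) on membrane A (x axis) against that on membrane C (left panel, 111 genes, r = 0.89) and on membrane D (right panel, 138 genes, r = 0.06), where each point is a gene. Sry-alpha and CG12730 were below 0 on all 3 membranes, while betaTub56D was above 0 on A and C and below 0 on D.

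Besides ena, the genes with the largest positive differences did not pass the test. They included CR40712, whose identifier marks a non-coding gene, with 1.95 (SE 0.75, limma, adjusted p = 0.146), and betaTub56D, a beta-tubulin of the whole embryo, with 1.90 (SE 0.64, limma, adjusted p = 0.125), both above the difference of ena. betaTub56D had levels of 0.35, 0.20, 0.24 and -0.33 on S6-7 membranes A to D, against -3.16, -1.53, -3.08 and 0.65 on S5 membranes A to D. Its difference was thus 3.52, 1.73 and 3.32 on A to C but -0.99 on D. CG32043, listed in RefSeq as CG44838, had 1.56 (limma, adjusted p = 0.0924), its difference on D was -0.0073, and it was called higher in 8 of 18 alternatives. CG14641 was at 1.50, CG9629, the aldehyde dehydrogenase Aldh7A1, at 1.50, and Mipp1, an inositol polyphosphate phosphatase, at 1.25. The remaining genes of the 12 were CG11077 at 1.19, transportin (CG7398), a nuclear import receptor, at 1.12, CG17090, the protein kinase Hipk, at 1.11, and Ubp64E, the deubiquitinase Usp47, at 1.10. Of these, CG11077, an Mpv17 homolog, had levels of 3.28, 4.29, 1.15 and -0.41 at S6-7 on A to D, against 1.37, 0.86 and -0.78 at S5 on A, C and D. The difference on D was also below 0 for CR40712 (-0.39), CG9629 (-0.55), transportin (-0.95) and CG17090 (-0.25). It was above 0 there for ena (0.37), CG11077 (0.37), Tom (0.24), Ubp64E (0.058) and CG14641 (0.0024), and Mipp1 had no value on D.

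Tom, a Bearded-family inhibitor of the Notch pathway ubiquitin ligase Neuralized, was, among the genes on all 8 membranes, the gene besides ena whose S6-7 membranes lay above all S5 membranes. It had levels of 2.34, 1.51, 0.85 and 0.38 on S6-7 membranes A to D, against 0.01, 0.29, -0.41 and 0.14 on S5 membranes A to D. The difference of 1.26 (SE 0.40) had an adjusted p of 0.0999 in limma. Tom was among the 5 of 52 genes on all 8 membranes that were above 0 on 4 of 4 letters, while 5 were below 0. Over the intervals its mean was -2.73 ± 0.13 at S2-3 (n = 3), 0.01 ± 0.30 at S5 (n = 4), 1.27 ± 0.85 at S6-7 (n = 4), 2.31 ± 0.41 at S8-9 (n = 3) and 0.28 ± 0.75 at S10-12 (n = 3). Ocho, a second member of the family, had a difference of -1.12 (limma, adjusted p = 0.146), with levels of -3.08, -2.39 and -4.15 at S6-7 and -2.04, -0.92 and -2.63 at S5 on A to C.

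Among the genes with the most negative differences, 8 did not pass the test. Nrt, the transmembrane adhesion protein neurotactin, had levels of 0.72, -1.38 and 0.04 on S6-7 membranes A, C and D, against 2.51, 2.48 and 0.78 on S5 membranes A, C and D. The groups did not overlap on these 3 letters, a coverage for which the share over all genes was not counted. The difference of Nrt was -2.13 (SE 0.65, limma, adjusted p = 0.0924), with a call in 7 of 18 alternatives, as many as Tctp. ATPsyn-d, a subunit of the mitochondrial ATP synthase, had -1.85 (limma, adjusted p = 0.0924), of which the difference on D was -0.16. Df31, a chromatin decondensation factor, had levels of 2.28, 2.13, 0.76 and 1.89 on S6-7 membranes A to D, against 2.99, 3.30 and 3.83 on S5 membranes A, C and D. Its groups did not overlap either, and for its coverage too the share over all genes was not counted. The difference of Df31 was -1.69, with an adjusted p of 0.146 in limma. The gene dpld, now wech, which encodes a TRIM-NHL protein, had -1.43, and 14-3-3zeta, a phosphoprotein adaptor, had -1.34, both with a difference above 0 on D. SNCF was at -1.32, alph, a protein phosphatase of the PP2C type, at -1.21 and Sxl, the sex-determination splicing regulator, at -1.16.

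**Figure D4:**
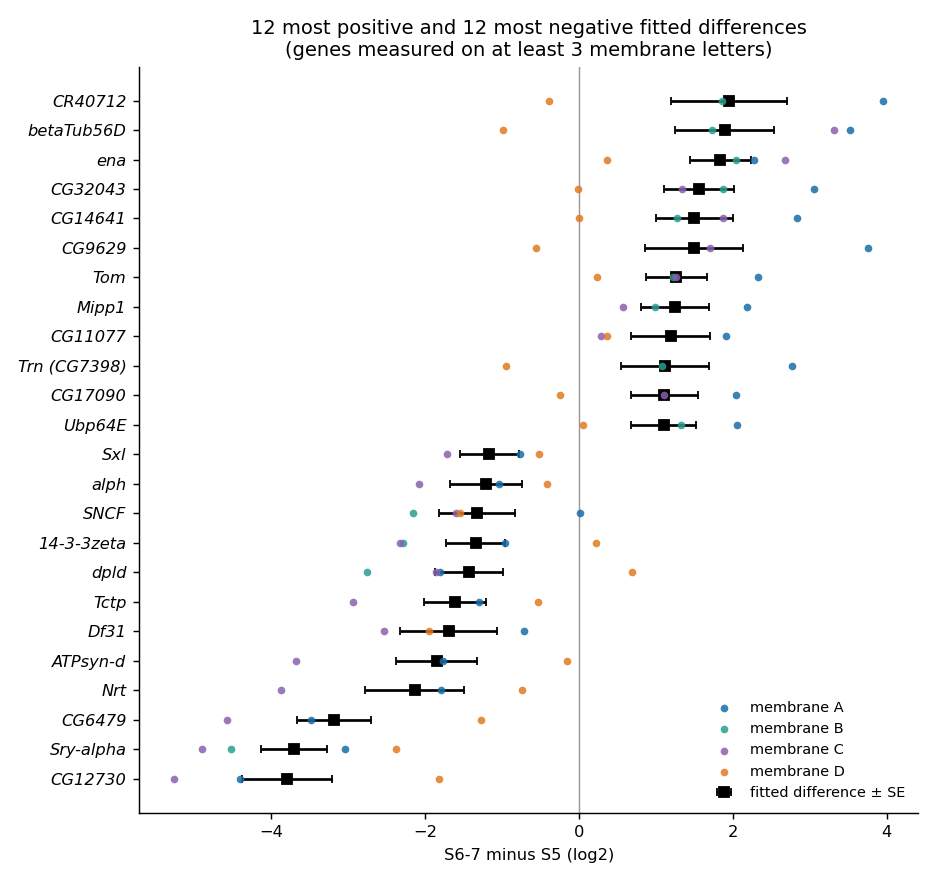
Fitted difference of S6-7 minus S5 (log2, black squares with SE) and the difference on each membrane letter (colored points) for the 12 genes with the most positive and the 12 with the most negative values among genes measured on at least 3 letters. The points of membrane D lay nearer to 0 than those of A to C for most genes, and ena, Sry-alpha, CG12730, CG6479 and Tctp were the genes past the threshold.

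Of the cellularization and cellular blastoderm genes, 4 of the 9 listed were printed and tested, with 0 higher and 1 lower (0 and 2 at an unadjusted p under 0.05), and their median difference was -0.89 beside -0.20 for all genes tested. The gene that passed was Sry-alpha. SNCF had levels of 2.27, 1.78, 0.98 and 0.25 on S6-7 membranes A to D, against 2.26, 3.93, 2.59 and 1.79 on S5 membranes A to D, and so overlapped through membrane A. Its adjusted p was 0.146 in limma. The septin gene Sep5 had levels of 0.44 and -0.31 on S6-7 membranes C and D, against -1.85 and -0.05 on S5 membranes C and D, so that the differences on these letters had opposite signs. The Golgi-associated cellularization gene lva had a difference of -0.45 (limma, adjusted p = 0.594). A longer list of cellularization genes from an earlier screen, as the study assembled it, was printed with all 10 members, of which 8 were tested, with 0 higher and 0 lower in limma (1 and 0 at an unadjusted p under 0.05) and a median of 0.49. Its largest differences were those of Sep5 (1.30), CG8960 (1.06), CG6234 (0.86) and CG13427 (0.60). The median of this list was -0.07 under scaling to RP49 and dap, over the membranes that carried both. That scale left out membrane D, and Sep5, CG6234 and CG13427 could not be tested under it. The 2 medians are thus not of the same genes.

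The putative secreted and membrane proteins of unknown function numbered 17, of which 14 were tested, with 0 higher and 2 lower, CG12730 and CG6479 (1 and 3 at an unadjusted p), and a median of -0.03. The other 12 lay between -0.71 and 1.06, and CG8960 had the most positive value. CG12730 is not in the study's supplementary list, so its place in this class has no prediction of the study behind it. The cytoskeleton genes numbered 10, of which 8 were tested, with 1 higher (ena) and 0 lower in limma (1 and 1 at an unadjusted p) and a median of -0.25. Profilin, encoded by chic, had levels of 0.80 and 0.55 on S6-7 membranes B and D, against 1.34 and 2.17 on S5 membranes B and D, with a difference of -1.15 (limma, adjusted p = 0.163). The microtubule-associated gene corn was at -0.69 and alphaTub84B, an alpha-tubulin, at 0.55.

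Segmentation and homeotic genes numbered 23, of which 11 were printed and 7 tested, with 0 higher and 0 lower in limma (1 and 1 at an unadjusted p) and a median of -0.16. The Hedgehog receptor gene ptc had levels of -1.92, -3.45 and -1.52 on S6-7 membranes B, C and D, against -0.18, -1.97 and -1.05 on S5 membranes B, C and D. It was lower on these 3 letters, with overlap between letters and a difference of -1.07 (SE 0.37, limma, adjusted p = 0.127). The kinase gene nmo was at 0.82, and the homeobox genes Antp and hth were at -0.78 and -0.65. Mesoderm and ventral furrow genes numbered 11, with 5 printed and 3 tested, with 0 higher and 0 lower in limma at either an adjusted or an unadjusted p under 0.05 and a median of -0.23. These were stumps, an adaptor of the FGF receptor, at -0.70, RhoGEF3, a putative guanine nucleotide exchange factor, at 0.55 and CG4500 at -0.23. The study placed RhoGEF3 among transcripts unevenly distributed along the anteroposterior axis, so its place in this list has no pattern of the study behind it. Of 8 FGF and EGF signaling genes, 3 were printed and stumps and Egfr, the EGF receptor, were tested, Egfr with a difference of 0.66, and 0 passed in limma at an adjusted or unadjusted p.

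Dorsal ectoderm and amnioserosa genes numbered 14, with 9 printed and 8 tested, 0 higher and 0 lower in limma (0 and 0 at an unadjusted p), and a median of 0.32. The LIM-homeobox gene tup had levels of -1.99, -2.48, -2.78 and -1.45 on S6-7 membranes A to D, against -3.26, -2.55, -4.38 and -1.58 on S5 membranes A to D. It was higher at S6-7 on 4 of 4 letters by 0.77 in the fit, and the limma adjusted p was 0.264. The same sign on 4 of 4 letters was seen in 5 higher and 5 lower genes of the 52 on all 8 membranes. The BMP antagonist gene sog was at -0.81, and scyl, a growth inhibitor gene, at -0.79. The list also held brk, at -0.48, which the study describes as expressed in the neurogenic ectoderm. Its members are thus not all genes expressed in the dorsal ectoderm, and 5 of those tested were above 0 and 3 below. Bearded-family and Notch genes numbered 9, with 6 printed and 5 tested, 0 higher and 0 lower in limma (1 and 1 at an unadjusted p), and a median of 0.30. Besides Tom and Ocho, these held spen, an RNA-binding transcriptional regulator, at 0.70 and Gp150, an endosomal glycoprotein, at 0.30. The median of the dorsal ectoderm list ranged from 0.32 to 0.88 and that of the Bearded and Notch list from 0.30 to 0.97 over the 6 scales, where that of all genes ranged from -0.20 to 0.51.

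The remaining lists had 0 genes past the threshold in limma, and the counts at an unadjusted p under 0.05 are given as higher and lower. Adhesion and axon guidance genes (9 of 11 tested, 0 and 2) had a median of -0.09, with Nrt at -2.13, dpr19 at -0.83, lea, the Slit receptor robo2, at 0.82 and trn, the leucine-rich repeat protein Tartan, at 0.72. Chromatin and dosage compensation genes (6 of 10 tested, 1 and 1) had a median of -0.45, with Df31 at -1.69, HmgZ, an HMG-box protein, at 1.09, msl-2 at -0.62 and Iswi, a nucleosome remodeling ATPase, at -0.53. RNA processing and translation genes (8 of 9 tested, 0 and 2) had a median of -0.54, with the RNA polymerase II subunit Rpb7 at -1.36, Ip259 at -1.08, pen at -0.89 and the splicing factor B52 at 0.66. Each of these 3 lists held values on both sides of 0. Metabolic and housekeeping genes (10 of 10 tested, 1 and 3) had a median of -0.49, with ATPsyn-d at -1.85, 14-3-3zeta at -1.34, CG11077 at 1.19 and the oligosaccharyltransferase subunit OstStt3 at -0.92. Ubiquitin, SUMO and cell cycle genes (7 of 8 tested, 1 and 0) had a median of 0.38, with Ubp64E at 1.10, CG14939, the cyclin gene CycY, at -0.91, DDB1 at -0.91 and CycB3, a mitotic cyclin, at 0.69. Non-coding genes (4 of 4 tested, 1 and 0) had a median of 0.56, with CR40712 at 1.95, the heat-shock RNA Hsromega at 0.82, roX1, an RNA of dosage compensation, at -0.37 and CR32477 at 0.31. Over the 6 scales the median of the non-coding genes ranged from 0.56 to 1.24, that of the RNA processing genes from -0.60 to 0.14, that of the metabolic genes from -0.58 to 0.12 and that of the chromatin genes from -0.48 to 0.22. The median ranged from -2.69 to -0.19 for the cellularization and blastoderm genes, from -0.20 to 0.57 for segmentation, from -0.23 to 0.54 for mesoderm, from -0.09 to 0.67 for adhesion, from -0.25 to 0.72 for cytoskeleton, from -0.15 to 0.69 for secreted or membrane proteins and from 0.16 to 0.87 for ubiquitin and cell cycle genes. That of the cellularization genes of the earlier screen ranged from -0.07 to 1.02 and that of the FGF and EGF genes from -0.02 to 0.74. Of these scales, RP49 and dap left out membrane D, which has no dap, and tested 148 genes, so some lists lost members under it. The value of -2.69 came from that scale and from Sry-alpha and SNCF alone, because Sep5 and lva could not be tested without D. Under the other scales the median of the cellularization and blastoderm genes was -0.89 to -0.19. No list was tested.

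**Figure D5:**
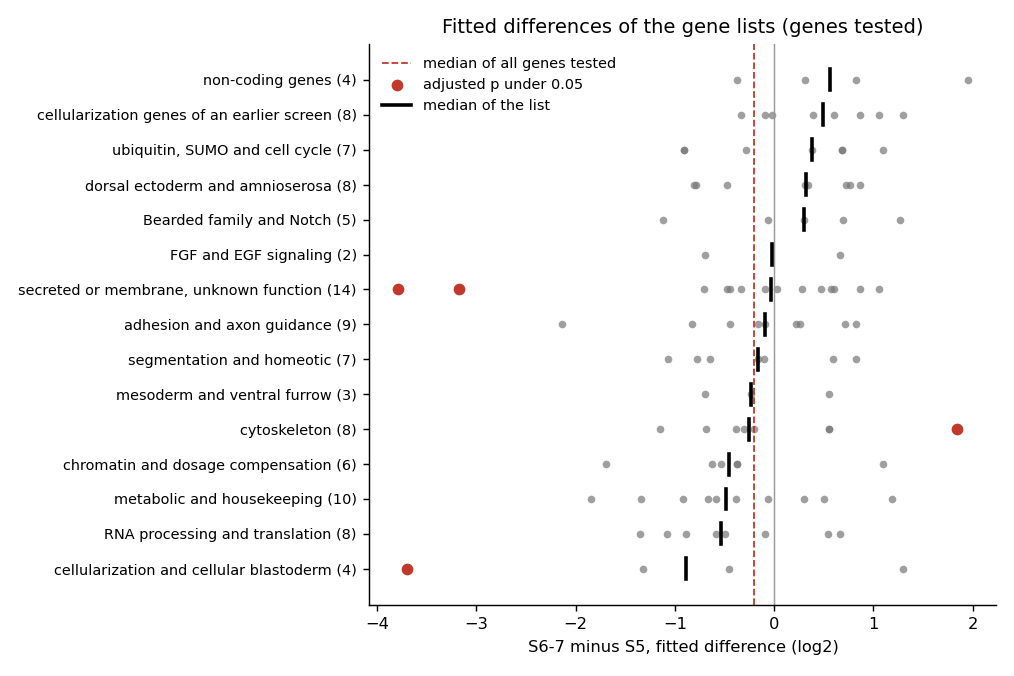
Fitted differences of S6-7 minus S5 (log2) for the genes tested in each list, with the number tested in parentheses, the list median as a black bar, the median of all genes tested as a dashed line and genes past the threshold in red. The red points are Sry-alpha, CG12730, CG6479 and ena, while Tctp belongs to none of these lists.

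Of the 4 genes that the study chose for quantitative PCR, Sry-alpha was past the threshold here. Ptr, a sterol-sensing transmembrane protein related to Patched, had levels of -2.10, -2.42 and -0.76 on S6-7 membranes A, B and D, against -3.54, -1.25, -2.87 and -0.40 on S5 membranes A to D. The groups overlapped, and the difference was -0.02 (SE 0.48, limma, adjusted p = 0.978). CG6234, now Dtg, a gene of the dorsal ectoderm, had levels of -2.42, -2.65, -3.71 and -0.57 on S6-7 membranes A to D, against -4.86 and -0.32 on S5 membranes A and D. It was above 0 on A and below 0 on D, with a difference of 0.86 (SE 0.58, limma, adjusted p = 0.373). RhoGEF3 had levels of -2.21, -1.53 and -0.92 on S6-7 membranes A, B and D, against -3.60, -1.41 and -1.30 on S5 membranes A, B and D. Its difference of 0.55 (SE 0.47) had an adjusted p of 0.493 in limma.

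The study divided 118 of the printed genes into clusters by their profiles over these samples, so that the clusters are not independent of the differences given here. The median difference was -0.33 in cluster 1 (27 of 36 tested, 0 higher and 0 lower), -0.26 in cluster 2 (34 of 37 tested, 0 higher and 1 lower) and -0.11 in cluster 3 (35 of 45 tested, 0 higher and 1 lower). The lower genes were Sry-alpha in cluster 2 and CG6479 in cluster 3. Genes with a restricted pattern in whole embryos had a median of 0.39 (12 of 15 tested), and genes with a ubiquitous pattern had a median of -0.48 (7 of 8 tested), with 0 genes of either past the threshold in limma (1 higher and 1 lower, and 1 higher and 2 lower, at an unadjusted p). By the interval of the highest mean level, the 180 tested genes measured at all 5 intervals divided into 5 genes of S2-3, 41 of S5, 12 of S6-7, 53 of S8-9 and 69 of S10-12. These means rest on differing numbers of membranes and were not adjusted for letter. They also move with the RP49 median, which was 0.0495, 0.0128, 0.0870 and 0.0414 on S10-12 membranes A to D. At S2-3 it was 0.132, 0.0639, 0.0819 and 0.0315. The counts thus do not show at which stage the RNA of most genes was highest.

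Not every gene could be compared. Of the 259 genes, 68 were not tested, and 65 of them were measured on some membranes of both intervals but on fewer than 2 letters in common. MESR3 was measured at S6-7 only, with levels of -2.0, -3.74 and -4.11 on A, B and C, and did not pass on any S5 membrane. A bound was set by the lowest passing signal of each S5 membrane or its own signal there, whichever was higher. The S6-7 mean of MESR3 was -3.29, or 1.85-fold above the mean bound of -4.17. Its level on C was close to that bound, so this is a limit on the average only. MESR3 was named because it passed at S6-7 only, which fixed the direction in advance. The genes mt:CoII and trus passed on no membrane of either interval. Among introns 12 of 36 were tested, with a median of 0.02, and among intergenic regions 7 of 15, with a median of 0.27, and 0 of both passed the threshold in limma (3 higher and 0 lower at an unadjusted p). A separate table of normalized levels from the authors held 123 features without names, in which 57 were higher and 66 lower at S6-7, with a median log2 ratio of -0.25.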

How the data were processed

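Signals came from 32P-labeled, SMART-amplified cDNA hybridized to nylon membranes. The deposited intensity values are those of the authors' scanner software, which gives for each spot a raw intensity, a background mean and SD, and a net intensity. The authors normalized to RP49 and to the dap spike. A second deposited table holds the authors' normalized ratio values without feature names, and its scale is not given in the sources used here. Here, spots were kept when the raw intensity reached 1 background SD above the local background and the net intensity was above 0. Clones whose duplicates had a coefficient of variation above 0.5 on a membrane were left out. The authors' filter on spot quality (qcom) was not applied. Clones of a gene were averaged, divided by the median RP49 net intensity and taken to log2, with no pseudocount. Features measured at both intervals on at least 2 membranes of the same letter were tested (210 features, 191 of them genes). limma (version 3.58.1, in R 4.3.3; lmFit and eBayes) was fitted once to all 20 membranes, with interval and membrane letter as terms, and p-values were adjusted by Benjamini-Hochberg over the 210 features. The letter was taken as a technical block because D has another layout. Deviations of same-letter S6-7 and S5 membranes correlated with r = 0.42, -0.06, 0.31 and 0.55 on A to D, and those of different letters with -0.49 to 0.47 (-0.02 to 0.47 within A to C), so the letter sets D apart but does not identify pairs among A to C. Names were those of the files, and 253 of 259 genes matched RefSeq, 238 by locus tag. Figures and summaries were made with Python 3.11.15. Named genes were those past the threshold, the 12 most positive and 12 most negative differences among genes on at least 3 letters, up to 4 genes of each list, the genes of the study's quantitative PCR, genes measured at 1 interval only and the printed controls. The members and lists were chosen with earlier results of these data known. Alternatives were other scales, a normexp background, other signal and duplicate rules, the fit without the block or over 8 membranes, and the omission of each letter; averaging membranes A and C was added after the data were seen. The number of membranes limits the precision. No sequences or coordinates were used here.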

Additional observations from a re-analysis of the deposited data

Results flagged for a closer look

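Among 76 groups of 4 membranes of the named genes, 1 held a membrane far from the other 3 by Dixon's gap criterion, and chance alone flags about 1 in 20 groups. This was dpld (now wech) at S6-7, which stood at 2.65 on membrane D and between -1.33 and -0.93 on A to C, on the log2 scale over RP49. At S5 the same gene was at 0.87, 1.74, 0.53 and 1.96 on A to D, so that the difference of S6-7 minus S5 was 0.69 on D and -1.80, -2.75 and -1.85 on A to C.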

How the results depend on the processing

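Sry-alpha, CG12730 and CG6479 stayed lower at S6-7 and past the threshold in all 18 alternatives, with differences of -4.15 to -2.68, -4.81 to -1.86 and -4.11 to -1.87. The call of ena was kept in 13 and that of Tctp in 7 of the 18, while CG32043 and Nrt, which did not pass in the reported fit, did so in 8 and 7. No gene was higher and 3 were lower without the block, where 3 genes were higher and 5 lower at an unadjusted p under 0.05. The block was also tried on only the 8 membranes of S6-7 and S5, with 2 higher and 4 lower. Other counts of higher genes were 6 with the 75th percentile, with RP49 and dap and with quantile normalization, and 4 with the mean of RP49 spots, the normexp background, 2 background SD and no duplicate limit. Other counts of lower genes were 7 with RP49 and dap, 10 with the normexp background, and 11 with 2 background SD and with no duplicate limit. The setting with RP49 and dap also left out membrane D, which has no dap, and tested 148 genes. Its counts thus do not show the effect of the scale alone. On S6-7 membrane C, dap passed on 4 of 40 spots, at -4.03 over RP49, against 0.80 on A and 0.74 on B. With membranes A and C averaged there were 0 higher genes and 3 lower (10 and 13 at an unadjusted p). Leaving out each letter gave 0 to 20 higher and 3 to 21 lower genes, the highest counts without D and 0 higher without A, B or C (5, 11 and 11 at an unadjusted p), and medians of -0.42 to -0.06. The median gene moved furthest, to 0.51, with the mean of RP49 spots.

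Of 1085 values of 64 named genes, 957 kept their direction and side of the threshold, 16 lost and 78 gained the call, and 34 changed sign, none of them of Sry-alpha, CG12730, CG6479, ena or Tctp; the cause was not tested. With the normexp background these were CG14641 (-0.0061), CG9629 (-0.083), CG6234 (-0.053), CG13427 (-0.17), nmo (-0.051), tup (-0.16), spen (-0.085), Gp150 (-0.20), lea (-0.17), trn (-0.11), HmgZ (-0.014), B52 (-0.11), Hsromega (-0.080), CR32477 (-0.085) and Egfr (-0.23). With the mean of RP49 spots they were lva (0.26), hth (0.11), CG4500 (0.54), Iswi (0.14), pen (0.026), roX1 (0.30) and Ptr (0.58). Ptr was also at 0.25 and CG13427 at -0.46 without the block, and Ptr was at 0.13 with the 75th percentile, 0.038 with RP49, actin and tubulin, and 0.35 with no signal rule. RhoGEF3 was at -0.15 with RP49 and dap, and CR32477 at -0.22 with no duplicate limit and -0.060 with the median of clones. With each letter left out in turn, alphaTub84B ranged from -0.38 (without B) to 1.21, Ptr from -0.66 to 0.51 (above 0 without B or D), and roX1 from -0.51 to 0.0066 (without C). The number of membranes and their scattered control spots at S5 limit what these data can resolve.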
